A study of Arabidopsis thaliana with 9 samples.

Results

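The 41 histone genes described here were a list of gene identifiers, of 33550 genes in the bulk table and 23241 in the tables of nucleus and cell clusters. They comprised 8 H4, 5 H3.1, 3 H3.3, 4 canonical H2A, 2 H2A.X, 4 H2A.Z, 3 H2A.W, 9 H2B and 3 linker H1 genes. H4, H3.1, canonical H2A and H2B are called replicative below (26 genes), and H3.3, H2A.X, H2A.Z and H2A.W variant (12 genes). All 41 were in the bulk table and 40 in the cluster tables, where the H2A.Z gene HTA4 (AT4G13570) was not listed. All samples were roots of wild-type Arabidopsis thaliana Col-0 seedlings with no treatment named in the labels. Nuclei were sorted from roots of 7-day-old plants, for 5 RNA libraries and 2 libraries of accessible chromatin (ATAC-seq, where a transposase inserts into unpackaged DNA). Bulk RNA came from root tips of 6-day-old plants, 1 library from intact tips, titled whole root, and 1 from protoplasts, which are cells freed of their walls. A table of whole cells in 20 numbered clusters matched none of the labelled samples, and the plants behind it are unknown. The nucleus tables hold 1 pooled average per gene and cluster, for 21 clusters, so no value has a replicate error and no test could be made.

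Histones package DNA into nucleosomes, each around an octamer of H2A, H2B, H3 and H4, which a linker histone H1 can close. Replicative histones are made while DNA is copied, and H3.1 is placed on new DNA by the chaperone CAF-1, whereas H3.3 is exchanged through the whole life of a cell, with help from HIRA. Among the H2A variants, H2A.X is phosphorylated at DNA breaks, H2A.W marks silent heterochromatin and H2A.Z is exchanged by the SWR1 complex, often near gene starts. Growing roots replicate DNA in the meristem and, in plants, also in maturing cells that enlarge by endoreduplication. Plant histone mRNAs carry poly(A) tails, so libraries primed at the 3′ end capture them. Many of these genes are near-identical copies, and how reads shared between copies were counted is not given in the sources used here, so differences between copies of 1 class are uncertain.

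Cluster 9 was the cluster of DNA replication genes: 10 of 11 listed replication genes were highest there among nuclei, beside 10.6% of all genes past the floor. Among whole cells 3 of the 11 passed the floor, PCNA1, PCNA2 and TSO2. Each was judged by its highest value, which lay in cluster 9, so this is no separate support. The lists were chosen with earlier results of these data known. Mitosis genes were highest in cluster 10, 9 of 10 among nuclei and 10 of 10 among whole cells. Values are averages per 10000 transcript tags, which count a transcript once whatever its length, and the floor is 0.5 per 10000 in the highest cluster.

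Nearly all replicative histone genes had their highest nucleus value in cluster 9. This was so for 24 of the 25 replicative genes past the floor, while 10.6% of all genes past the floor were highest there. All 8 H4, all 5 H3.1 and all 4 canonical H2A genes were highest in cluster 9, as were 7 of 8 H2B genes past the floor. Their summed level was 108 per 10000 in cluster 9, 37.4 in cluster 13, 28.1 in cluster 3, a median of 12.2 over the 21 clusters and 7.06 in cluster 1, where 3 of 5 root hair genes were highest. The mitosis cluster 10 was near the median, at 10.8, which was 15th of 21.

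**Figure D1:**
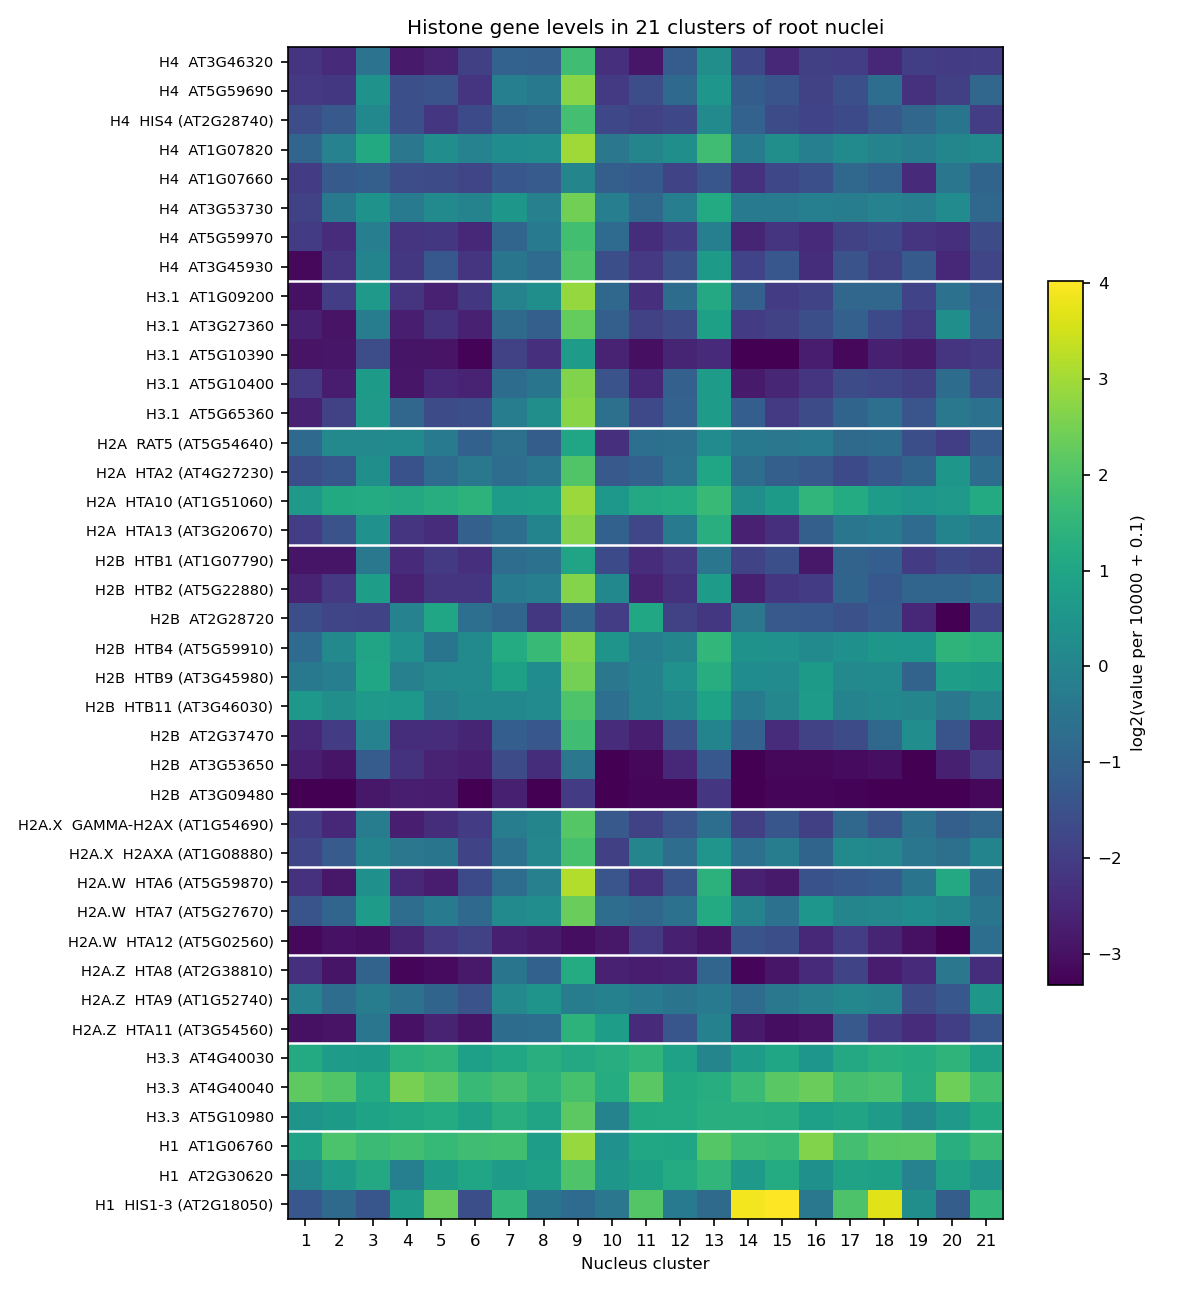
Level of 40 histone genes (rows, grouped by class) in each of the 21 nucleus clusters (columns), as log2 of the value per 10000 after adding 0.1. Cluster 9 is highest in 24 of 25 replicative rows past the floor, cluster 13 is next in many of them, and 2 of 3 H3.3 rows are not highest in cluster 9.

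The H4 genes encode the partner of H3 in the nucleosome core. AT1G07820 ranged from 0.425 in cluster 1 to 7.71 in cluster 9, with a median of 0.943. AT3G53730 ranged from 0.170 to 5.39 with a median of 0.790, and AT5G59690 from 0.106 to 6.40 with a median of 0.266. With 0.1 added to each value, cluster 9 exceeded the median of the other clusters 7.59-fold, 6.20-fold and 18.3-fold for these 3 genes. AT1G07660 was the flattest H4 gene, at 0.916 in cluster 9 and 0.635 in cluster 20, a 2.57-fold excess over the median other cluster.

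The H3.1 genes had the most similar patterns of any class, by the correlation given below. AT1G09200 was at 7.09 in cluster 9 against a median of 0.395, AT5G65360 at 6.46 against 0.419, and AT5G10400 at 6.07 against 0.193. AT3G27360 was at 4.79 in cluster 9. AT5G10390 had the lowest level of the class, 1.54 in cluster 9, and was listed at 0 in clusters 14 and 15. Their excess in cluster 9 ran from 11.3-fold for AT5G10390 to 22.2-fold for AT5G10400. Over the 21 clusters the Pearson correlation of log2 values between H3.1 genes had a median of 0.90 over 10 pairs, against 0.81 over 28 pairs of H4 genes and 0.16 over 3 pairs of H3.3 genes. These are descriptions of pooled averages that share the same libraries.

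Canonical H2A and H2B genes differed in their lowest levels. HTA10 (AT1G51060) was at 7.49 in cluster 9 and never under 1.13, and HTA13 (AT3G20670) was at 6.31 there and as low as 0.0610 in cluster 14. HTA2 (AT4G27230) reached 3.95. RAT5 (AT5G54640), the HTA1 gene, was at 1.91 in cluster 9 and at 1.05 in cluster 13, an excess of 3.12-fold over the median other cluster, against 11.9-fold for HTA13. Among H2B genes HTB4 (AT5G59910) was at 6.17 in cluster 9 with a lowest value of 0.490, HTB9 (AT3G45980) at 5.53 and 0.405, and HTB11 (AT3G46030) at 3.89 and 0.542. HTB2 (AT5G22880) had the largest H2B excess, 19.3-fold, at 6.18. HTB1 (AT1G07790) was at 1.84 in cluster 9 and AT2G37470 at 3.27. AT3G53650 and AT3G09480 were low in every nucleus cluster, with highest values of 0.652 and 0.149, both in cluster 9. AT3G53650 was listed at 0 in clusters 10, 14 and 19, and AT3G09480 in 9 of the 21 clusters. In whole cells AT3G53650 and AT3G09480 were at 16.7 and 0.896 in cluster 9.

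AT2G28720 was the 1 replicative gene past the floor with another pattern. This H2B gene was at 1.99 in cluster 11 and 1.94 in cluster 5, at 0.854 in cluster 4, at 0.426 in cluster 9 and listed at 0 in cluster 20. In whole cells it was highest in cluster 9, at 0.879, and at 0.130 in cluster 5.

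Cluster 13 was the second cluster for 18 of the 25 replicative genes that were highest in cluster 9, 1 of them under the floor, and cluster 3 for another 4. Among all 1385 genes past the floor and highest in cluster 9, 7.94% had cluster 13 second. The replication genes had another order. Only CYCA3;1, an S-phase cyclin, had cluster 13 second, and their summed level was 15.0 in cluster 9, 5.79 in cluster 7, 5.38 in cluster 8 and 3.50 in cluster 13. None of the 56 markers past the floor was highest in cluster 13, but the endodermis genes SCR, CASP1 and PER64 had their second values there, 1.64, 2.69 and 1.99 against 1.84, 93.3 and 57.0 in cluster 16. The other 4 of the 7 endodermis genes, ESB1, CYP86A1, GPAT5 and FAR4, had their second values in cluster 15.

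The H3.1 share of the summed H3.1 and H3.3 level was highest in the same 3 clusters. It was 72.1% in cluster 9, 55.9% in cluster 13 and 49.3% in cluster 3. It was 33.2% in cluster 8, 26.2% in cluster 7, 24.7% in cluster 20 and 24.0% in the mitosis cluster 10. The lowest shares were 3.70% in cluster 1, 5.09% in cluster 5 and 5.79% in clusters 2 and 15, and the median was 16.0%. The summed H3.1 level ranged 85.4-fold between clusters, from 0.304 to 25.9, and that of H3.3 ranged 1.87-fold, from 5.403 in cluster 10 to 10.1 in cluster 4.

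**Figure D2:**
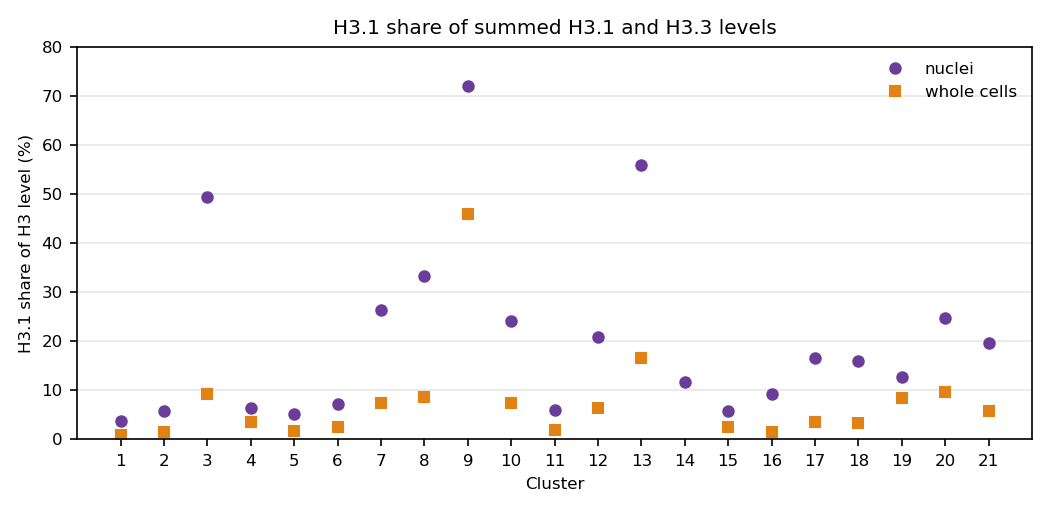
Share of the summed H3.1 and H3.3 level that was H3.1, in percent, in each cluster of nuclei (circles) and whole cells (squares, no cluster 14). Cluster 9 is highest in both, at 72.1% and 45.9%, followed by cluster 13 at 55.9% and 16.6%.

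The variant genes did not move as 1 group. Of 11 variant genes in the cluster tables, 7 were highest in cluster 9, both H2A.X, 2 of 3 H2A.W, 2 of 3 H2A.Z and 1 of 3 H3.3 genes. The median excess of cluster 9 over the median other cluster was 3.15 on the log2 scale for the 26 replicative genes and 2.34 for the 11 variant genes, beside 0.13 over all genes past the floor. An excess of 2-fold or more was seen for 25 replicative and 7 variant genes, and for 18.5% of all genes past the floor. By class the median log2 excess was 3.88 for H3.1, 3.65 for H2A.Z, 3.52 for H4, 2.90 for H2A.X, 2.53 for H2A.W, 2.35 for H2A, 2.28 for H2B, 1.19 for H1 and 0.04 for H3.3.

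Of the 3 H3.3 genes, 2 had no excess in cluster 9. AT4G40040 ranged from 2.102 in cluster 12 to 5.63 in cluster 4 with a median of 3.53, and AT4G40030 from 0.906 in cluster 13 to 2.70 in cluster 11 with a median of 2.04. In cluster 9 they were at 3.60 and 2.06, within the range of the other clusters. The third gene, AT5G10980, was at 4.38 in cluster 9, where it was highest, and at 2.33 in cluster 14, with a median of 1.85.

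Both H2A.X genes, whose products mark DNA breaks, were highest in cluster 9. GAMMA-H2AX (AT1G54690) was at 4.18 there, 0.922 in cluster 8 and 0.0526 in cluster 4. H2AXA (AT1G08880) was at 3.57 in cluster 9 and 1.33 in cluster 13, with a lowest value of 0.161 in cluster 10.

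The H2A.W genes split. HTA6 (AT5G59870) had the largest excess of all members, 23.9-fold, with 8.92 in cluster 9, 2.53 in cluster 13, 2.06 in cluster 20 and 0.0375 in cluster 2. HTA7 (AT5G27670) was at 5.004 in cluster 9, 2.16 in cluster 13 and never under 0.274. HTA12 (AT5G02560) was low and highest in the xylem cluster 21, at 0.533, with 0.276 in cluster 14 0.0207 in cluster 9 and a listed 0 in cluster 20.

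The H2A.Z genes split as well. HTA8 (AT2G38810) was at 2.17 in cluster 9 and 0.656 in cluster 20, and HTA11 (AT3G54560) at 2.60 in cluster 9 and 1.63 in cluster 10. HTA9 (AT1G52740) had no excess among nuclei, from 0.226 in cluster 19 to 1.37 in cluster 21, with 0.745 in cluster 9. In whole cells HTA9 was narrowly highest in cluster 9, at 6.56 against 6.24 in cluster 10. There its excess over the median other cluster was 2.01-fold. H2A.Z made up 41.9% of the summed H2A level in the mitosis cluster 10, the highest share of any nucleus cluster, against 11.8% in cluster 9 and a median of 13.8%. In whole cells that share was highest in cluster 1, at 53.2%, with 44.0% in cluster 10 and a median of 28.9%. The summed canonical H2A level was lowest in cluster 10, at 2.19, while that of H2A.Z was second there, at 2.53 against 5.52 in cluster 9. H2A.W made up 33.5% in cluster 20 and 29.8% in cluster 9, with a median of 19.4%.

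**Figure D3:**
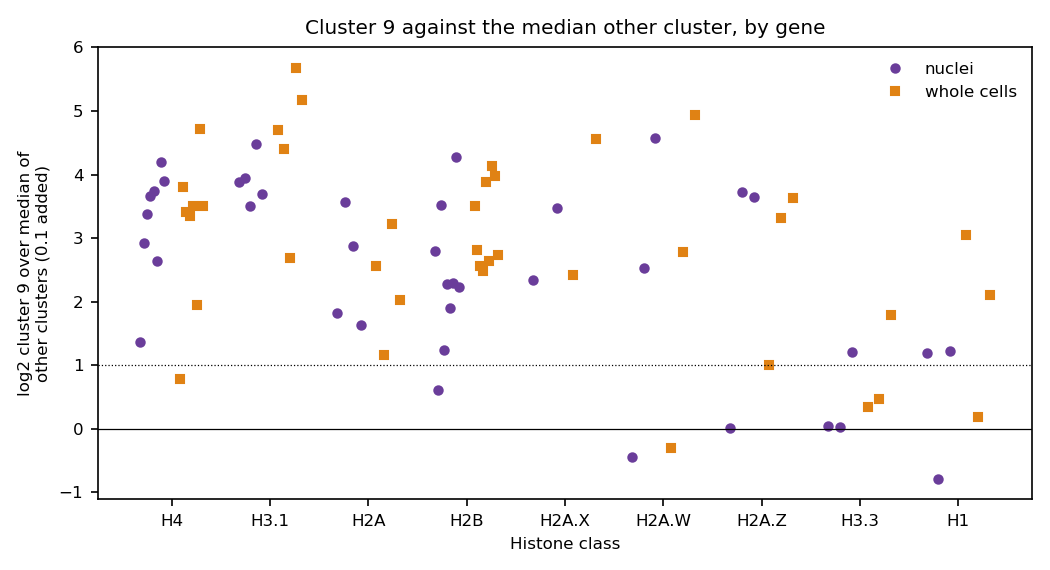
Log2 of the cluster 9 value over the median of the other clusters, after adding 0.1 to both, for each of 40 genes by class, in nuclei (circles) and whole cells (squares). The dotted line is 2-fold. H3.1 points lie between 3.50 and 4.48 in nuclei, and 2 of 3 H3.3 points lie near 0 there.

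The linker histone genes had their own patterns. AT1G06760 was at 7.32 in cluster 9, 6.12 in cluster 16, where Casparian strip genes were highest, and 1.22 in cluster 10. AT2G30620 was at 3.93 in cluster 9 and 2.73 in cluster 13, with a lowest value of 0.795 in cluster 4. HIS1-3 (AT2G18050), a linker histone known to be induced by drought, was at 16.1 in cluster 15, 14.6 in cluster 14 and 12.7 in cluster 18. It was at 4.89 in cluster 5, 4.06 in cluster 11 and 0.491 in cluster 9, with a median of 0.695 and a lowest value of 0.243 in cluster 6. Its highest value exceeded that of every other member among nuclei, but not in whole cells or bulk RNA, as given below. Suberin genes were highest in cluster 14 and 3 of 4 pericycle genes in cluster 18.

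Whole cells gave the same leading cluster for most genes. Among the 26 replicative genes, all past the floor in that table, 25 were highest in cluster 9, as were 8 of 10 variant genes past the floor, beside 7.3% of all genes. The exception among replicative genes was the H4 gene AT1G07660, at 0.695 in cluster 11 and 0.592 in cluster 9. An excess of cluster 9 of 2-fold or more was seen for 25 replicative and 8 variant genes, and for 17.3% of all genes past the floor. The summed replicative level was 186 per 10000 in cluster 9 and 31.7 in cluster 13, with a median of 17.4. The median log2 excess of cluster 9 was 4.70 for H3.1 genes, against 3.88 in nuclei, and 4 of the 5 had a larger excess than in nuclei. AT5G10400 was at 13.2 in cluster 9 and 0.987 in the next cluster, and AT5G65360 at 13.96 and 1.86. HTA13 had a smaller excess, 2.23-fold against 11.9-fold, at 4.08 in cluster 9 and 3.28 in cluster 13.

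Levels were then compared between the tables as the mean over the 20 clusters that both hold, with 0.1 added. Of the 40 genes, 31 reached 0.5 in either mean. Among these 31, 8 were at least 2-fold higher in whole cells and 6 at least 2-fold lower, beside 19.8% and 43.4% of all genes past that floor. The median log2 ratio of the 31 was 0.41, and that of all genes past the floor -0.67. Relative to that median gene, 18 members were 2-fold higher and 1 lower, and with medians over clusters in place of means 8 were higher and 3 lower. No share of all genes was taken under either setting, so 19.8% and 43.4% cannot be set beside these counts. The tables were normalized separately and the plants behind the whole-cell table are unknown, so plants, preparation and compartment cannot be told apart.

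Of the 3 H3.3 genes, 2 were at least 2-fold higher in whole cells. AT5G10980 had a mean of 1.93 in nuclei and 9.88 in whole cells, and AT4G40040 of 3.58 and 11.998. AT4G40030, at 2.01 and 3.86, was 1.88-fold higher. The H2A.Z gene HTA9 was at 0.725 and 3.60. Of the H2B genes, AT3G53650 was at 0.114 and 1.98 and AT2G37470 at 0.447 and 2.60, whereas HTB4 was at 1.72 and 0.586 and HTB2 at 0.745 and 0.234. HTA13, RAT5 and the H4 gene AT5G59690 were also 2-fold higher in whole cells, and HTA2 and the H4 gene AT3G45930 were 2-fold lower. The H3.1 genes past the floor differed by less than 2-fold. The H3.1 share of H3 in cluster 9 was 45.9% there against 72.1% in nuclei.

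Of the 3 linker histone genes, 2 were at least 2-fold lower in whole cells. HIS1-3 had a mean of 2.76 in nuclei and 0.00707 in whole cells over the shared clusters. In whole cells its highest value was 0.111, in cluster 21, and it was listed at 0 in clusters 15 and 18, where nuclei held 16.1 and 12.7. Such a fall was not particular to HIS1-3. The pericycle genes NRT1.5, PHO1 and HKT1 were at 22.7, 11.4 and 1.55 in nucleus cluster 18. Their highest values in any whole-cell cluster were 0.0271, 0.652 and 0.0131. The cause was not tested. AT1G06760 had means of 3.33 and 1.45, and AT2G30620 of 1.75 and 1.82.

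In bulk RNA, most histone genes were lower in protoplasts than in intact root tips. Values are FPKM, fragments per transcript length and mapped library, with 1 library a group. A floor of 5 FPKM in the higher library kept 40 members. With 1 FPKM added, 31 of them were lower in protoplasts by 2-fold or more, beside 30.3% of all nuclear genes past that floor. Another 2 were at least 2-fold higher, beside 11.4%. All 8 H4 genes, 4 of 5 H3.1, 2 of 4 H2A, 6 of 9 H2B, both H2A.X, 3 of 3 H2A.Z, 2 of 3 H2A.W, 1 of 3 H3.3 and 3 of 3 H1 genes were 2-fold lower. The median log2 ratio of the 40 was -1.72 and that of all genes past the floor -0.46. Relative to that median gene 28 of the 40 were 2-fold lower, beside 18.8% of all nuclear genes past the floor. HTA4 measured 0.0475 FPKM in the intact library, and the protoplast library listed it at 0. That pair of values was identical to that of AT3G11860, so it is uncertain.

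The 3 lowest ratios belonged to replicative genes. Pairs of FPKM values below give the intact library first. The H2B gene AT2G28720 had 43.7 and 4.16, an 8.67-fold difference. The H4 gene AT3G45930 was at 44.01 and 4.41, and the H3.1 gene AT5G10390 at 21.98 and 1.90. The other H4 genes were 2.55-fold to 5.55-fold lower, from AT1G07660 at 19.7 and 7.11 to AT3G46320 at 43.98 and 7.10, and AT3G53730 had the highest H4 level, 190.1 and 65.7. HTA2 was at 83.5 and 13.4, and HTB11, the highest H2B gene in intact tips, at 282 and 64.2. Higher in protoplasts were the H2B genes AT3G53650, with 76.6 and 231 FPKM, and AT3G09480, at 6.00 and 13.9. HTA13 was at 52.2 and 76.7, which is 2-fold higher only relative to the median gene. The H2B gene AT2G37470 was nearly level, at 85.6 and 80.9.

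**Figure D4:**
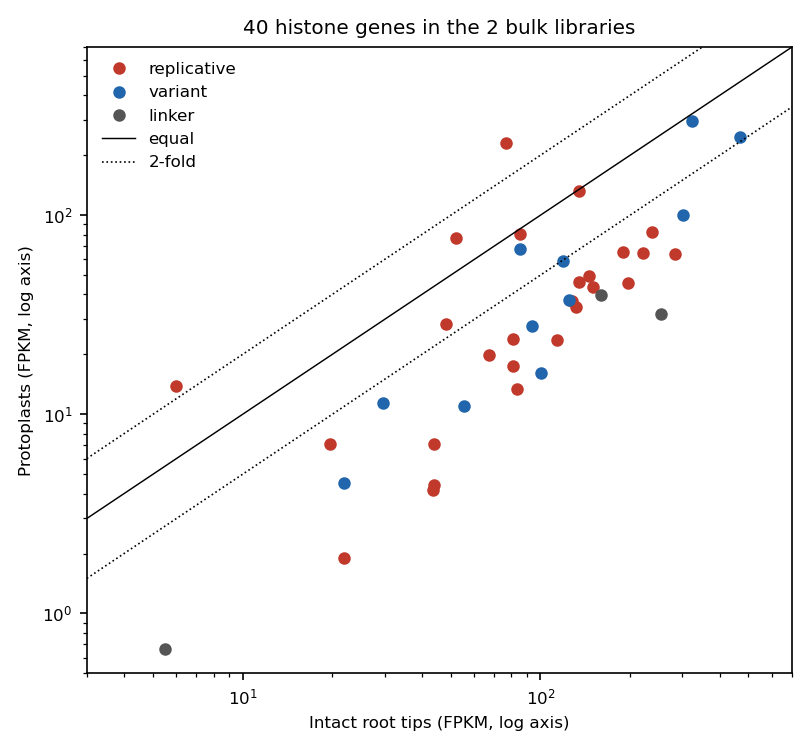
FPKM of 40 histone genes in intact root tips (horizontal) and protoplasts (vertical), both on log axes, coloured by kind, with lines for equal values and for 2-fold. There are 31 points at least 2-fold lower and 2 points at least 2-fold higher in protoplasts.

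No variant or linker gene past the floor was higher in protoplasts. Their log2 ratios ran from -2.56 to -0.12 for variant and from -2.95 to -1.96 for linker genes, beside -3.12 to 1.58 for replicative genes. The H3.3 gene AT5G10980 had 322 and 296 FPKM, AT4G40040 at 470 and 246, and AT4G40030 at 301 and 101. HTA11 was at 100.4 and 16.2, GAMMA-H2AX at 55.5 and 11.01, and HTA6 at 125 and 37.5. HTA7 was at 85.6 and 67.6. HTA9 lay at the threshold, at 119 and 59.1. The linker gene AT1G06760 was at 255 and 32.1, a 7.74-fold difference, AT2G30620 at 159 and 39.6, and HIS1-3 at 5.48 and 0.662.

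Among the H3 genes AT3G27360 was level at 135 and 133 FPKM, but its pair of values was identical to that of the nearby AT3G27380, so it is uncertain. H3.1 made up 32.4% of the summed H3 FPKM in intact tips and 27.4% in protoplasts, or 26.2% and 14.5% without AT3G27360. Listed replication genes were also lower in protoplasts, 6 of 9 past the floor by 2-fold or more. Their summed level was 130.4 FPKM in intact tips and 45.3 in protoplasts. Of the mitosis genes past the floor, 7 of 8 were lower by 2-fold or more, and that list summed to 97.8 and 27.2 FPKM. No gene of either list was at 0 in both libraries. Of the cell type lists, pericycle genes were at 128 and 7.95 FPKM summed, root cap genes at 28.1 and 105, and xylem genes at 101 and 165. Endodermis genes were at 1644 and 766, with 4 of 6 past the floor 2-fold lower, and photosynthesis genes at 67.5 and 2.32, with 3 of 3 lower. Root hair genes were at 1690 and 1056, non-hair genes at 470 and 415, and phloem genes at 20.02 and 52.7. The part of these lists in the result was not tested, and fewer cells of a type and less RNA per cell cannot be told apart in bulk samples.

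Accessible regions overlapped 40 of the 41 genes, all but HTA4, and formed 38 distinct regions, 3 of them shared by a pair of members. Most were broad, with a median length of 7140 bp and a median of 4 annotated genes each, so a region's value is seldom that of 1 histone gene. Values were scaled to 10000 per cluster. Medians over clusters lay between 0.360 and 0.504 for every region. The highest cluster exceeded the median cluster 2-fold in 5 of 38 regions, beside 51% of all 20803 regions. All regions had a median length of 1715 bp, so these shares do not compare regions of like length. The part of length was not tested. Cluster 4 held the highest value of 16 regions, beside 15.6% of all regions, and clusters 9 and 10 of 2, beside 13.9%. Cluster 4 also had the lowest deposited column total, and with values as deposited it led 7 regions and 2 regions reached 2-fold.

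Only HTA11 and HTA6 had regions under 1 kb, each holding 1 gene. A region of 391 bp overlapping HTA11, at chr3:20197063-20197453 in the file's TAIR10 coordinates, was at 2.83 in cluster 10, 1.91 in cluster 9, 1.81 in cluster 19 and 1.40 in cluster 13. HTA11 RNA in nucleus cluster 19 was only 0.0891. The region's median was 0.426, and it was listed at 0 in clusters 14 and 16. Its neighbour at chr3:20195838-20196475 was flat, from 0.272 to 0.688. The HTA6 region, chr5:24115850-24116613, was at 0.949 in cluster 10, 0.625 in cluster 9 and 0.173 in cluster 14. These 2 regions, the shorter at HTA11 and that at HTA6, were the ones led by cluster 10.

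The HIS1-3 region, chr2:7845654-7848247, was at 0.777 in cluster 14 and 0.755 in cluster 15, its highest values, with a median of 0.398. Those clusters also had the highest HIS1-3 RNA among nuclei. The region over AT2G28720 and HIS4 (AT2G28740), an H2B and an H4 gene, was highest in clusters 5, 14 and 11, at 0.933, 0.830 and 0.703, and AT2G28720 RNA was highest in clusters 11 and 5. Over 21 clusters the Spearman correlation of region and nucleus RNA was 0.69 for the shorter HTA11 region, 0.65 for AT2G28720, 0.60 for HTA6 and 0.57 for HIS1-3, but -0.28 for HIS4 with the same region. Across the 41 pairs of gene and region the median was 0.01, with 5 at 0.5 or above and 3 at -0.5 or below. Accessibility and RNA clusters were matched by their number, and all points share pooled libraries.

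**Figure D5:**
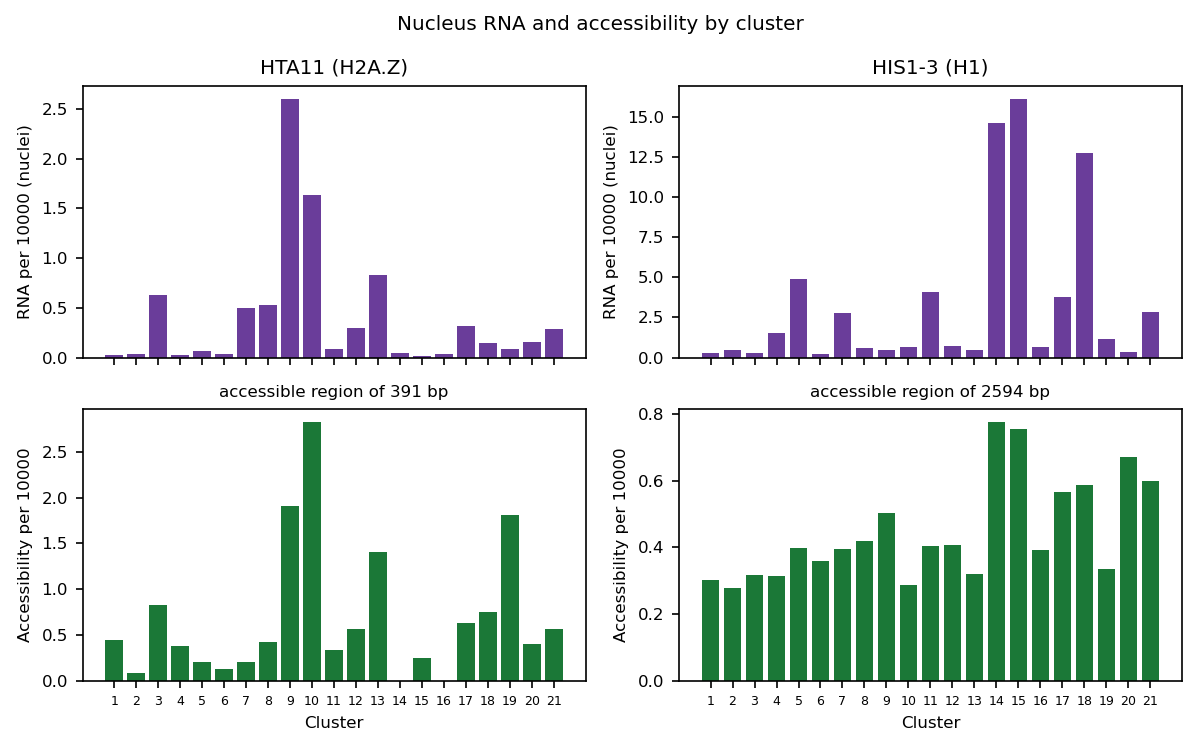
Nucleus RNA per 10000 (top) and accessibility per 10000 of the shortest overlapping region (bottom) in each of 21 clusters, for HTA11 (left, region of 391 bp) and HIS1-3 (right, region of 2594 bp). HTA11 is high in clusters 9 and 10 in both readouts, and HIS1-3 in clusters 14 and 15. The readouts differ elsewhere. In cluster 19 the HTA11 region is at 1.81 and its RNA at 0.0891. In cluster 20 the HIS1-3 region is at 0.672 and its RNA at 0.346.

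Genes that handle histones were examined in the same tables. Of 21 listed chaperones, remodellers and H3.1-linked factors, 15 passed the floor among nuclei, 9 highest in cluster 9 and 3 in cluster 10. Over all genes past the floor, 10.6% were highest in cluster 9, and no share was taken for cluster 10. In cluster 9 the chaperone genes NAP1;2, NAP1;1 and NRP1 were at 3.25, 3.20 and 1.30, the CAF-1 subunit genes FAS1 and MSI1 at 1.13 and 0.566, and the FACT subunit gene SPT16 at 0.782. SEF, of the SWR1 complex, was at 0.964 there, the remodeller gene CHR1 (DDM1) at 0.532 and TSK, a reader of new chromatin, at 0.527. Highest in cluster 10 were the SWR1 genes PIE1 and ARP6, at 1.76 and 0.583, and HMG (AT3G28730), the other FACT subunit gene, at 0.823. Under the floor, FAS2, HIRA, ASF1B and ATXR5 were also highest in cluster 9, at 0.280, 0.284, 0.221 and 0.419. Some of these leads were narrow. The second values were 0.764 for SPT16 in cluster 19, 0.957 for SEF in cluster 10 and 0.786 for HMG in cluster 17. For ASF1B the second was 0.219, in cluster 10, and for HIRA 0.270, in cluster 17.

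In bulk, 11 of 16 of these genes past the floor were 2-fold lower in protoplasts and none 2-fold higher. Over all nuclear genes past that floor the shares were 30.3% and 11.4%. The median log2 ratio was -1.11 for the 16 genes and -0.46 for all genes. No count relative to that median gene was made here. NRP1 was at 69.6 and 6.95 FPKM, NRP2 at 39.4 and 6.00, NAP1;1 at 59.2 and 9.91, and NAP1;2 at 84.8 and 29.4. SEF was at 15.6 and 4.47, ASF1B at 12.8 and 3.60, MSI1 at 20.9 and 7.13, and ARP6 at 10.7 and 4.33. CHR1 was at 5.02 and 1.82, SGA2 (ASF1A) at 16.3 and 7.15, and FAS1 at 5.68 and 2.17. Of 8 histone genes outside the list, the centromeric H3 gene HTR12 was highest in cluster 9, at 0.976, with 0.715 in cluster 10, and measured 9.35 and 2.91 FPKM in bulk. HTR11 was at 1.12 in cluster 9. AT1G75600 was higher in protoplasts, with 0.322 and 19.3 FPKM, a log2 ratio of 3.94. Among nuclei it was highest in cluster 5, at 0.543.

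The 8 genes outside the list with the nucleus pattern most like that of the replicative histones were named by likeness. Likeness was the Pearson correlation over 21 clusters of log2(value + 0.1) with the mean of the 26 replicative genes. HMGB6, of the HMG-box family, reached 0.953, the repair genes BARD1, BRCA1, MSH7 and BRCA2(IV) 0.949, 0.920, 0.917 and 0.909, and AT4G16807, AT5G63550 and AT3G27640 0.943, 0.922 and 0.919. All 8 were highest in cluster 9, which largely follows from their choice by likeness to a pattern highest there. In whole cells their correlations ran from 0.762 to 0.916 over 20 clusters.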

How the data were processed

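Histone members and lists were chosen with earlier results of these data known. The authors deposited FPKM values for the bulk libraries (the unit was read from the values). Per the submitters' processing notes, FastQC, TopHat2 2.0.11, Bowtie2 2.1.0 and SAMtools 0.1.19 were used, on TAIR10. For nuclei the notes name Seurat 3.1.5 after Cell Ranger 3.1.0, and Signac 0.2.5 with Cell Ranger ATAC 1.2. The deposited cluster tables hold 1 average signal per gene or region and cluster, pooled over libraries. Gene columns sum to 10000, and region columns, with totals from 10532 to 14125, were scaled to 10000. How multiplets were treated is not given in the sources used here.

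Steps in low FPKM values gave an estimate of 1.25 for the depth of the intact library over that of the protoplast library. Of 2699 genes looked at, 229 lay at that ratio. Absolute depth is unknown.

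Fold differences used log2(FPKM + 1) among genes at 5 FPKM or more, or log2(value + 0.1) in clusters. A difference counted from 2-fold. Regions counted at 1 bp overlap, with genes placed by the RefSeq table of TAIR10.1, which names all 41 members. Named outside the members were the 8 most alike genes and listed chaperones or histones that led in cluster 9 or 10 or passed 2-fold in bulk. In the members, values were given for the highest genes and extremes of each class. Calculations were made in Python 3.11.15 with pandas 2.3.3 and NumPy 2.4.6, figures in Matplotlib 3.10.9, and the steps were tested on simulated data.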

Additional observations from a re-analysis of the deposited data

How the results depend on the processing

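No value has a replicate, so no library could be left out, and no paired analysis was possible because the nucleus tables pool the numbered libraries and the bulk groups hold 1 library each. Counts of members highest in cluster 9 and 2-fold lower in protoplasts stayed within 1.5 times under every alternative tried for them. The members 2-fold higher in protoplasts numbered 1 with a floor of 20 FPKM. Without the highest gene of each H3 class, the H3.1 share ran from 7.46% to 74.6% in place of 3.70% to 72.1%. The median log2 excess of cluster 9 was 3.58 for replicative and 2.49 for variant genes with 0.01 added, 2.32 and 1.85 with 0.5 added, and 3.38 for replicative genes past the floor. Centred on the median gene, 18 members were 2-fold higher in whole cells and 1 lower, in place of 8 and 6, and with medians over clusters 3 were lower. No share of all genes was taken for these comparisons of whole cells with nuclei. With accessibility as deposited, cluster 4 led 7 regions and 2 exceeded 2-fold, in place of 16 and 5. The causes were not tested. Unknown depth limits low values, such as those of AT3G09480, HTA12 and AT5G10390.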
